A study of Homo sapiens with 2 samples.

Results

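Transcript signals of the cytoplasmic ribosomal proteins were compared between MHCC97H cells with GP73 knocked down and MHCC97H control cells. The sample titles were MHCC97Hshv for the control and MHCC97HshGP73 for the knockdown, so neither was titled as the plain line. The genes were taken by name, as array rows annotated to a single symbol of the RPL or RPS series, with pseudogenes, ribosomal S6 kinases, readthrough and antisense symbols left out and RPL or RPS paralogs described separately. This gave 49 genes, 27 of the large and 22 of the small ribosomal subunit, among 22411 genes with a row of their own. MHCC97H is a human hepatocellular carcinoma cell line, and GP73 is a Golgi membrane protein encoded by GOLM1. Both groups were the same line without a stated drug treatment, the control being labelled as a high GP73 expresser. Each group was a single array, 2 in all, so no value below has a replicate error and no p-value was computed. The sources used here do not say whether the knockdown line was a clone or a mixed population, nor which sequence was used for the knockdown.

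A ribosome is built from ribosomal RNA and about equal numbers of copies of each ribosomal protein, which are made in the cytoplasm, imported into the nucleolus and assembled there by a large set of transient assembly factors. The large subunit joins amino acids and the small subunit reads the messenger RNA. Ribosomal protein messenger RNAs typically begin with a terminal oligopyrimidine (TOP) tract, a C followed by an unbroken run of C and T, through which mTOR and LARP1 control their translation together. Liver cells secrete much protein, and growing hepatoma cells spend a large part of their transcription on ribosomes.

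The tract could be looked up in RefSeq promoters of assembly GRCh38.p14, in which 44 of the 49 genes had an entry. In the windows below, shown for 3 of the genes highest and 3 of the genes lowest in the knockdown array, the start site follows the first 15 bases and capitals mark a C followed by at least 4 C or T that begins within 5 bases of the start.
RPL36: ccgcgcggcgccagcCCTTCCgccacggcc
RPS15: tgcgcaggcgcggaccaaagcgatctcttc
RPL19: tgggctctccCCTTCgcagataatgggagg
RPL9: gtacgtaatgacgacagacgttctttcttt
RPL35A: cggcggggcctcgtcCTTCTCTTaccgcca
RPL34: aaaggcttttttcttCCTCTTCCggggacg
The windows lie at chr19:5690280-5690309 for RPL36, chr19:1438381-1438410 for RPS15, chr17:39200268-39200297 for RPL19, chr3:197950175-197950204 for RPL35A and chr4:108620561-108620590 for RPL34, all on the plus strand, and at chr4:39458908-39458937 on the minus strand for RPL9. The search covered only the strand that has the sequence of the transcript. Such a tract began within 5 bases of the start in 37 of the 44 genes, or 84.1%. The share was 22.1% of 15843 promoters of protein-coding genes and 21.1% of all 27305 promoters of the same length. Both RPS15, higher in the knockdown array, and RPL9, lower in it, were among the 7 in which no such tract begins within 5 bases of the annotated start; in the printed windows of both, a run of this kind begins farther downstream. The stretch marked in RPL19 ends just before the annotated start. Of the measured genes with an entry, the 35 with the tract had a median log2 difference of 0.05 with 23 higher, and the 6 without it a median of -0.02 with 3 higher.

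Differences are the log2 signal of the knockdown array minus that of the control array. A gene was called measured when its higher signal reached 5.84, the median of that quantity over all genes, and 46 of the 49 ribosomal protein genes did so. RPL31, RPL37A and RPS4Y2 stayed below this floor in both arrays, and RPS6 was above it in the control array alone, so RPS6 passed through its higher array. The signals of different rows depend on their probes and do not rank the transcripts by abundance. GOLM1, which checks the labels, went from 9.13 to 7.46, 3.18-fold lower. Of 8 hepatocyte markers with a row, APOB, APOA1, SERPINA1, KRT8 and KRT18 were measured, whereas ALB, AFP and TTR lay below the floor in both arrays, and their highest signal was 4.55. Of 5 markers of fibroblast, endothelial and blood cells with a row, COL1A1 and PECAM1 were measured. PECAM1 went from 5.98 to 5.26, below the floor, COL1A1 from 5.92 to 6.09, and APOB from 6.27 to 5.80, also below it. The median differences of the measured markers were -0.05 over 5 hepatocyte genes and -0.27 over the 2 others, and their part in the results below was not tested.

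The ribosomal protein genes as a group differed little between the arrays, while single genes spread to both sides. Of the 46 measured genes 27 were higher and 19 lower in the knockdown array; of all 11206 measured genes 47.8% were higher and 50.5% lower. The median difference was 0.02 and the mean 0.02, against a median of -0.01 over all measured genes. The middle 50% of the genes lay between -0.14 and 0.14, and the SD over the genes was 0.217. All measured genes spread more widely, with the middle 50% between -0.19 and 0.16 and an SD of 0.262. Over all 49 genes, those below the floor included, 27 were higher and 22 lower, with a median of 0.01. The sign of the median was not stable, since centring each array on its own median turned it to -0.06, with the median over all measured genes at -0.09. It was 0.07 with quantile normalisation, 0.08 with the signal trend removed, 0.07 with the floor at the 75th percentile and 0.10 with a trend over promoter GC removed. In the same order, the median over all measured genes was 0.005, 0.006, -0.070 and 0.002, the last over genes with a promoter entry. In bulk RNA, fewer cells with a transcript and less of it per cell cannot be told apart.

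No ribosomal protein gene was at least 1.5-fold higher and none was at least 1.5-fold lower, a threshold that 1.08% and 1.55% of all measured genes passed. At 2-fold the shares were 0.161% and 0.134% of all measured genes. At a lower threshold, a log2 difference of 0.322, 4 ribosomal protein genes were higher, where 8.24% of all measured genes were, and 2 were lower, where 11.5% were. For scale, 99 genes had exactly 2 rows that reached the floor and shared their values with no other row, and their differences had a within-gene SD of 0.133, called the row spread here. The row spread reflects measurement inside the arrays and leaves out variation between cultures, RNA preparations and hybridisations. With quantile normalisation or the trend over signal removed 1 gene, RPL36, was at least 1.5-fold higher, and with median centring RPL9 was at least 1.5-fold lower. Under these scalings the share of all measured genes at least 1.5-fold higher was 1.19% and 1.04%, and with median centring the share at least 1.5-fold lower was 3.02%.

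**Figure D1:**
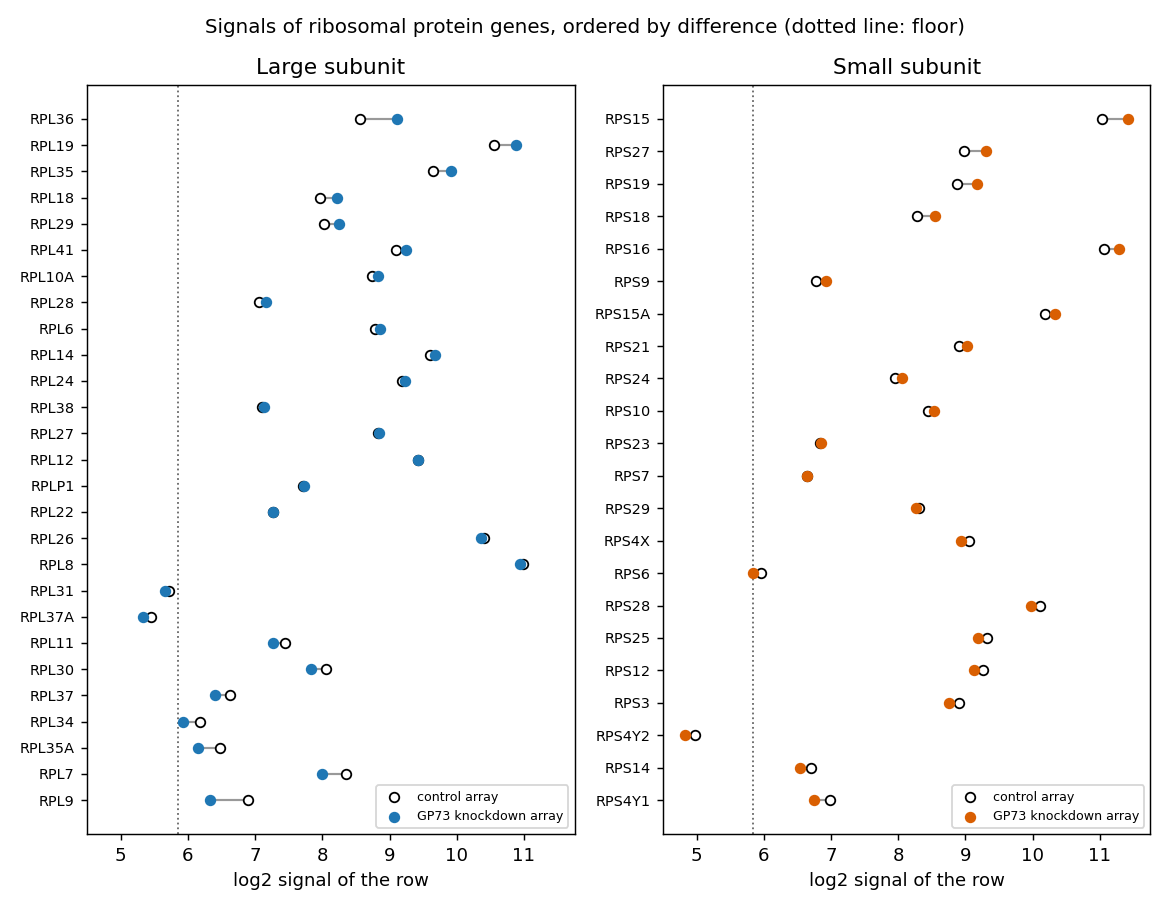
Log2 signal of each ribosomal protein gene in the control array (open circles) and in the GP73 knockdown array (filled circles), for 27 large and 22 small subunit genes ordered by their difference. The dotted line is the floor of 5.84. The longest lines belong to RPL36 at the top and RPL9 at the bottom of the large subunit.

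The large subunit held the widest differences in both directions. RPL36 went from a log2 signal of 8.56 in control cells to 9.11 in knockdown cells, 1.47-fold higher. RPL9, which sits near the factor-binding side of the large subunit, went from 6.89 to 6.32, 1.48-fold lower. These differences of 0.56 and -0.56 are of transcript signal, and the protein content of the ribosome was not measured.

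Next among the higher large subunit genes was RPL19, a protein of the bridges between the subunits, which went from 10.55 to 10.88. RPL35, a protein beside the exit of the nascent chain tunnel, went from 9.65 to 9.92. RPL18 went from 7.97 to 8.22, a difference of 0.25. Of these, RPL19 alone was past the lower threshold.

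On the lower side, RPL7, an RNA-binding protein of the large subunit, had signals of 8.35 and 7.99, a difference of -0.36. RPL35A, a gene mutated in some patients with the inherited red cell aplasia Diamond-Blackfan anaemia, went from 6.47 to 6.15 and, at -0.32, was just short of the lower threshold. RPL34 went from 6.17 to 5.93 and RPL37 from 6.63 to 6.40. RPL34 thus came close to the floor in the knockdown array. RPL11, which with RPL5 can bind and inhibit MDM2 when ribosome assembly fails, went from 7.44 to 7.26. RPL8, close to the catalytic centre, had signals of 10.99 and 10.94, and RPL26 had 10.41 and 10.36.

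Several large subunit genes had nearly the same signal in both arrays. RPLP1, an acidic protein of the stalk that recruits elongation factors, stood at 7.72 in each. RPL22, also known for binding a small RNA of Epstein-Barr virus, stood at 7.26 and 7.27. RPL12, at the base of the stalk, had signals of 9.42 and 9.43. RPL27, RPL38, RPL24, RPL14, RPL6, RPL28 and RPL10A lay between 0.01 and 0.10. RPL41 and RPL29 differed more, at 0.14 and 0.22. Over the 25 measured large subunit genes 16 were higher and 9 lower, with a median of 0.01 and a range from -0.56 to 0.56.

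In the small subunit, RPS15, whose tail reaches towards the decoding site, had the highest difference, going from 11.04 to 11.43. RPS27, a zinc-binding protein, went from 8.98 to 9.30 and RPS19, the gene most often mutated in Diamond-Blackfan anaemia, from 8.87 to 9.18. RPS16 went from 11.07 to 11.29. RPS15 and RPS27 were past the lower threshold, and RPS19 at 0.31 was not.

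No small subunit gene was lower by a log2 difference of 0.322 or more. RPS4Y1, one of the Y-encoded copies of RPS4X, had the lowest difference of those measured, from 6.98 to 6.75, beside 9.05 and 8.94 for RPS4X itself. RPS14, whose loss underlies the anaemia of the 5q deletion syndrome, went from 6.70 to 6.53. RPS3, which lines the messenger RNA entry channel, went from 8.90 to 8.76. RPS6, the substrate that gave the ribosomal S6 kinases their name, went from 5.96 to 5.84. The differences of RPS29, RPS28, RPS25 and RPS12 lay between -0.14 and -0.04, and those of RPS23, RPS10, RPS24, RPS21, RPS15A and RPS9 between 0.03 and 0.14. RPS7 had signals of 6.65 and 6.64. Over the 21 measured small subunit genes 11 were higher and 10 lower, with a median of 0.03 and a range from -0.24 to 0.39.

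Set side by side, the medians of the large and the small subunit were 0.01 and 0.03, and their order was not stable. The large minus small value was -0.01 as deposited, 0.02 with quantile normalisation and 0.03 with the signal trend removed. The SD over the genes was 0.242 in the large and 0.187 in the small subunit, and 0.262 over all measured genes. With 1 array per group neither difference between the subunits could be tested.

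**Figure D2:**
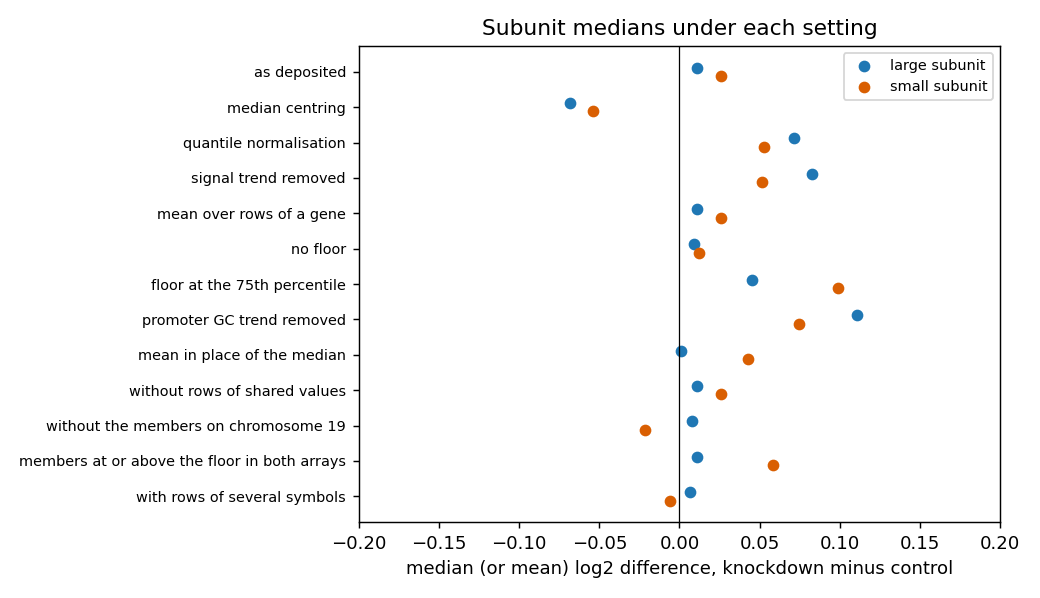
Median log2 difference (knockdown minus control) of the measured large and small subunit genes under each way of scaling, filtering and choosing genes; the mean takes the place of the median in the setting so named. All values lie between -0.07 and 0.11, with both medians below 0 under median centring.

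Among the ribosomal protein genes the difference went with the signal of the row. Spearman's rho between mean signal and difference was 0.46 over the 46 measured genes, 0.49 over the large and 0.35 over the small subunit, and over all 11206 measured genes it was -0.21. Over the 2242 measured genes with the highest mean signals, where most of the ribosomal protein genes lie, it was 0.02. The 23 genes with the higher mean signals had a median difference of 0.08 with 16 higher, and the 23 with the lower mean signals a median of 0.00 with 11 higher and both genes past the lower threshold downwards. In 10 equal bins of mean signal over all genes, the highest bin held 31 of the ribosomal protein genes, with a median of 0.09, and the median of all 2241 genes of that bin was -0.08. These coefficients run across genes of the same 2 arrays, which are not independent replicates, and they describe these arrays alone. The rho over the ribosomal protein genes was 0.47 with quantile normalisation, 0.50 with the signal trend removed and 0.27 with a higher floor, which left 37 genes; over all measured genes it was -0.01 with quantile normalisation, 0.02 with the signal trend removed and -0.01 with the higher floor.

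**Figure D3:**
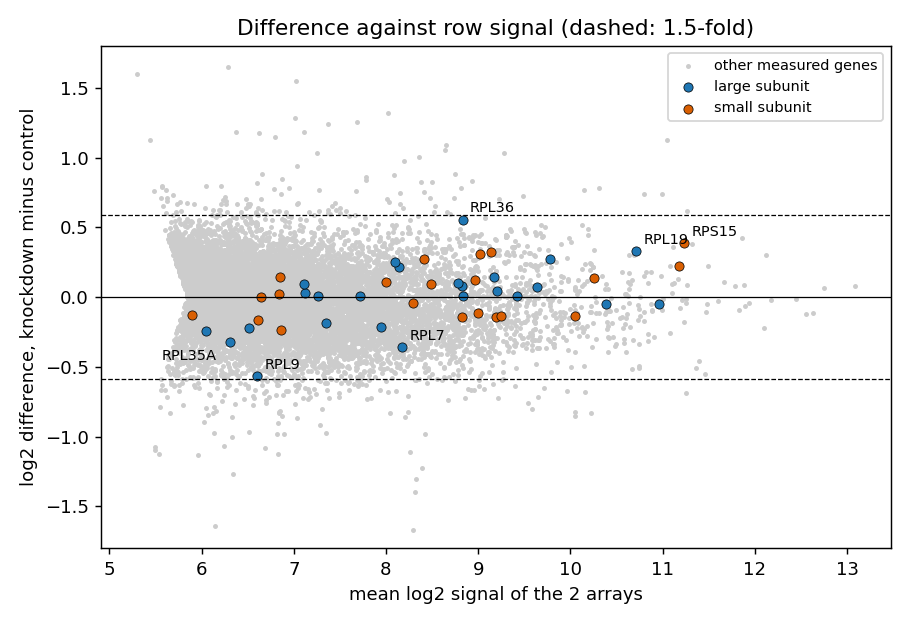
Log2 difference (knockdown minus control) against the mean log2 signal of the 2 arrays for all measured genes (grey) and for the large (blue) and small (orange) subunit genes. Dashed lines mark 1.5-fold, which no ribosomal protein gene crosses. RPL9, RPL7 and RPL35A lie at lower signals than RPS15 and RPL19.

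Genes on chromosome 19 were more often higher. RPS15, RPL36, RPS19, RPS16, RPL18, RPS9 and RPL28 were higher and RPS28, at -0.13, was lower, so that 7 of 8 were higher with a median of 0.24. The 38 measured genes on other chromosomes had a median of 0.01, with 20 higher. The same side was seen over all 879 measured genes of chromosome 19, of which 588 were higher, with a median of 0.10. Without chromosome 19 the small subunit median was -0.02. Promoter GC content, which had a median of 57.5% over the 44 ribosomal protein genes and 66% over measured genes, was related to the difference with a rho of 0.19 over 41 measured ribosomal protein genes and 0.14 over 8394 measured genes. Gene length was related to the difference with a rho of -0.29 over 46 measured ribosomal protein genes and -0.30 over 11204 measured genes. The part of promoter GC and of gene length in the differences was not tested.

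Rows that share a gene or a near copy showed how far the annotation can shift a value. RPS18 had 7 rows, 5 with the same values, at 7.76 and 7.90, a difference of 0.14. The only row not named for an alternate haplotype of chromosome 6 was among these. The RPS18 row of highest signal, used above and named for an alternate haplotype, went from 8.28 to 8.55. A seventh row went the other way, from 7.20 to 6.95. RPL30 had 2 rows, the brighter going from 8.05 to 7.84 and the other, below the floor, from 5.31 to 4.56. The mean over rows put RPS18 at 0.10 in place of 0.27 and RPL30 at -0.48 in place of -0.22.

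Processed pseudogenes of ribosomal protein genes carry nearly the sequence of the parent transcript, so how the signal divides between copy and parent is not certain. Of 41 pseudogene rows 21 were above the floor, with a median difference of -0.02. In 8 pairs of a measured pseudogene row and its measured parent the sign was the same in 5. RPL41P2, a copy of RPL41, had signals of 11.07 and 11.17, beside 9.10 and 9.24 for RPL41, whose product is a very short basic peptide. RPL19P20 went from 6.21 to 6.44, on the same side as RPL19, and RPL19P12 from 6.60 to 6.58. RPS12P23 stood at -0.40 and its parent RPS12, at 9.26 and 9.12, at -0.14.

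Of 9 paralogs with a row, 5 were measured. RPL7L1, a nucleolar relative of RPL7, went from 7.04 to 6.59, lower like RPL7 itself. RPL26L1 went from 6.20 to 6.47, at 0.27, while RPL26 stood at -0.05. RPL36AL had signals of 9.06 and 8.96, and RPL3L, a paralog of striated muscle, 5.78 and 5.91, below the floor in the control array. RPL39L, known from testis, had the identical value of 5.91 in both arrays. RPS27L, known as a p53 target, went from 5.78 to 5.54 below the floor, at -0.24, while RPS27 stood at 0.32. RPL22L1, also below the floor, stood at -0.31, and RPL10L and RPSA2 did not reach the floor either.

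A further 21 ribosomal protein genes appeared only in rows annotated to several symbols, mostly together with small nucleolar RNAs that lie in their introns. These genes are not named because their rows cannot be assigned. Of 22 such rows 21 were above the floor, with a median difference of -0.09 and a range from -0.34 to 0.43, 8 of them higher and 13 lower. With these rows included the median over 67 rows was 0.01. Of the 79 protein-coding genes that the naming rule matches in RefSeq, 9 were not analysed here.

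Small nucleolar RNAs guide the chemical modification of ribosomal RNA, and many are cut from introns of ribosomal protein genes. Of 9 that lie inside the span of one of the ribosomal protein genes, 5 had a row of their own, in 4 host genes. SNORA65, inside RPL12, went from 7.86 to 8.86, a difference of 1.00, while RPL12 stood at 0.01. SNORD15A and SNORD15B, inside RPS3, went from 7.65 to 7.37 and from 8.97 to 8.63, and RPS3 stood at -0.14. SNORD72, inside RPL37, at -0.77, and SNORA72, inside RPL30, at -0.38, were below the floor in both arrays.

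The genes that make ribosomes were then set beside the ribosomal proteins, to see whether the rest of the pathway had similar differences. Most assembly factors were lower in the knockdown array. Of 45 measured small subunit assembly factors 37 were lower and 8 higher, with a median of -0.21. Of all measured genes 50.5% were lower and 47.8% higher. Past a log2 difference of 0.322, 15 of these factors were lower and 0 higher, where 11.5% and 8.24% of all measured genes were. MPHOSPH10, a component of the early small subunit precursor, went from 7.58 to 6.98, 1.51-fold lower, and UTP14A, of the same precursor, from 8.69 to 8.15. IMP4, a partner of MPHOSPH10, went the other way, from 8.26 to 8.52, and AATF from 9.91 to 10.03.

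Of 37 measured large subunit assembly factors 27 were lower and 9 higher, with a median of -0.14. Over all measured genes the shares were 50.5% lower and 47.8% higher. Past 0.322, 7 of these factors were lower and 0 higher, where 11.5% and 8.24% of all measured genes were. RRS1, which brings RPL5, RPL11 and their RNA into the precursor, went from 7.89 to 7.28, 1.53-fold lower. RSL24D1, a placeholder on the precursor, went from 8.36 to 7.78. EIF6, which keeps the subunits apart until maturation ends, stood highest, from 8.16 to 8.42, followed by NOP16 at 0.08. With the signal trend removed the medians were -0.16 for the small and -0.07 for the large subunit factors.

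Of 12 measured RNA polymerase I and factor genes 9 were lower and 2 higher, with a median of -0.17. Of all measured genes 50.5% were lower and 47.8% higher. Past the lower threshold 4 of the 12 were lower and 1 higher, where 11.5% and 8.24% of all measured genes were. TAF1B, of the promoter selectivity factor, went from 6.02 to 5.39, below the floor, and the termination factor gene TTF1 from 6.61 to 6.12. POLR1D, shared with RNA polymerase III, went from 5.84 to 6.19, and POLR1F from 6.93 to 7.10. Before rounding, the control signal of POLR1D was just below the floor, so POLR1D passed through the knockdown array, where it was higher. With a trend over promoter GC removed, which kept 11 of these genes, the median was -0.03, and with no floor, over 14 genes, -0.28.

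Among translation factors and other proteins whose messenger RNAs are known for a TOP tract like that of the ribosomal proteins, 12 were measured. Of these 11 were lower and 1 higher, where 50.5% and 47.8% of all measured genes were. Past the lower threshold 3 were lower and 0 higher, where 11.5% and 8.24% of all measured genes were. The median was -0.16, and -0.09 with the signal trend removed. EIF3E, an initiation factor subunit, went from 7.47 to 7.07, and the histone chaperone gene NAP1L1 from 8.81 to 8.47. EIF3F, another subunit of the same initiation factor, went from 8.18 to 8.37, and PABPC1, the poly(A)-binding protein, from 11.51 to 11.46. FAU, which encodes a small subunit protein fused to a ubiquitin-like domain and falls outside the naming rule, went from 7.0 to 7.14.

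The snoRNP proteins, which hold the guide RNAs, were split 6 against 6 with a median of -0.01. Of all measured genes 47.8% were higher and 50.5% lower. Past the lower threshold 1 of the 12 was higher and 2 lower, where 8.24% and 11.5% of all measured genes were. At 1.5-fold 1 was higher and 0 lower, where 1.08% and 1.55% of all measured genes were. NOP10, of the H/ACA particles, went from 9.77 to 10.53, 1.70-fold higher, and RUVBL2, an assembly ATPase, from 8.56 to 8.73. NOP58, of the C/D particles, went from 9.40 to 8.91 and GAR1 from 6.89 to 6.46. Among 16 measured genes of growth control 7 were higher and 9 lower, with a median of -0.02. Past the lower threshold 1 of these was higher and 2 lower, and at 1.5-fold 0 were higher and 1 lower. The shares of all measured genes are those given for the snoRNP proteins. EIF4EBP1, a translation repressor that mTOR inactivates, went from 7.45 to 7.79 and MLST8, an mTOR partner, from 7.79 to 8.10, while EIF4EBP2 went from 8.01 to 7.42 and the RNA-binding protein gene LARP4 from 9.17 to 8.80.

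The p53 pathway, which free RPL5 and RPL11 can switch on through MDM2, had 8 measured genes. Of these 5 were lower and 3 higher, with a median of -0.19. Of all measured genes 50.5% were lower and 47.8% higher. Past the lower threshold 4 of the 8 were lower and 0 higher, where 11.5% and 8.24% of all measured genes were. RRM2B, a p53 target, went from 7.52 to 7.02 and MDM4 from 6.44 to 6.0. SESN2 went from 6.42 to 6.56 and CDKN1A, which encodes the cell cycle inhibitor p21, from 6.37 to 6.43. With a trend over promoter GC removed, which kept 7 of these genes, the median was 0.00.

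**Figure D4:**
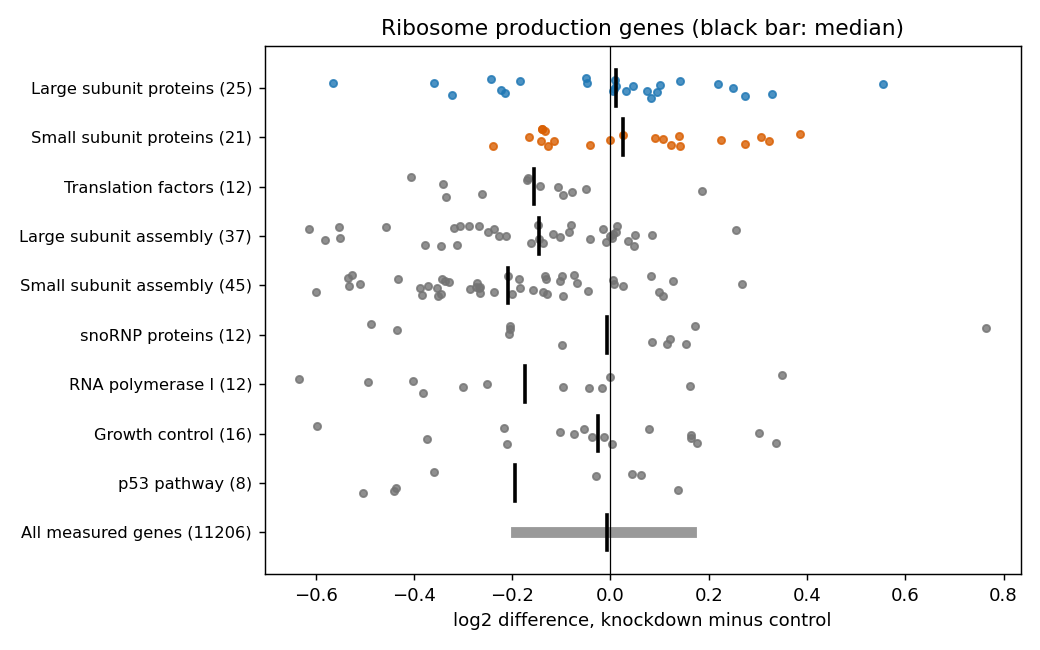
Log2 difference (knockdown minus control) of each measured gene, with the number of genes in brackets, for the ribosomal proteins and for lists of genes that make or control ribosomes. Black bars are medians, and the grey bar for all measured genes spans the middle 50%. The subunit proteins lie around 0, and the assembly factors mostly below it.

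The lists were not tested against each other, since 1 array per group leaves no error for a difference between them. Genes of a list share their arrays and may vary together, so their number does not stand for replication.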

How the data were processed

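Total RNA of 2 cultures was hybridised to 1 Affymetrix array each, per the labels. The submitters' processing notes name Affymetrix Expression Console as the tool behind the log2 signals that the authors deposited. The sources used here give neither its version nor the background correction, normalisation and genome build, and the log base was taken from the values. Rows were named through the platform annotation, which gave 1 symbol for 23781 of 70523 rows, several for 1543 and none for 45199, and updated through RefSeq (GRCh38.p14). The row with the highest mean stood for a gene. The floor was the 50th percentile of the higher signal. Trends were removed with lowess (fraction 0.3). The strand of small nucleolar RNA genes was not in the table used, so they were placed by span alone. RefSeq supplied the promoter sequences, of 250 bases before and 50 after the start. The number of arrays limits the precision.

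The members, lists and named genes were chosen with earlier results of these data known. Named genes are GOLM1, the 8 highest and 8 lowest members, members with the highest and lowest signals, those with several rows, paralogs and parents, a fixed set of well-studied members, hosts of small nucleolar RNAs, and in each list the 2 highest and 2 lowest genes; other members are named in passing after their values were seen. The alternatives were median centring, quantile normalisation, removal of the signal trend, the mean over rows, and other floors and thresholds. Further ones were the mean of a list and leaving out rows of shared values. The last could change no ribosomal protein result, since the row used for each of these genes shared its values with no other row. Removal of a promoter GC trend, leaving out chromosome 19, requiring both arrays above the floor and adding rows of several symbols were chosen after seeing the data. Only the removal of the signal trend was tested on simulated data, with known shifts given to a set of genes. That fit ran over all genes, whereas the fit used above ran over measured genes. Python 3.11.15, numpy 2.4.6, pandas 2.3.3, statsmodels 0.14.6 and matplotlib 3.10.9 were used.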

Additional observations from a re-analysis of the deposited data

Results flagged for a closer look

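Some rows outside the naming rule were above the floor and higher in the knockdown array by a log2 difference of at least 0.322. Of all measured genes 8.24% were higher by that much and 11.5% lower. Of 21 pseudogene rows above the floor, 3 were higher past that difference and 2 lower. Of 21 rows of several symbols above the floor, 2 were higher past it and 1 lower. Only the higher rows are described here. The pseudogene RPL23AP32 went from 5.74, below the floor, to 6.13, a difference of 0.39. Both rows of the pseudogene RPS26P11 were higher, at 0.53 (from 6.31 to 6.84) and 0.39 (from 6.11 to 6.50). The row TC12000500.hg.1, annotated to several symbols, stood at 0.40 (from 8.65 to 9.05), and TC11000030.hg.1, also of several symbols, at 0.43 (from 9.59 to 10.02). Groups of 1 array allowed no search for outlying samples.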

How the results depend on the processing

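No paired analysis was possible because each group has 1 array, and no replicate could be left out. Among the named ribosomal protein genes, RPL30 and RPS18 moved by more than the 0.133 SD between rows of a gene, with the mean over rows; changes of the floor, and the mean over rows for genes with 1 row, cannot move a single gene's value. With median centring the medians became -0.061 for all, -0.068 for the large and -0.054 for the small subunit; the small subunit median was -0.021 without chromosome 19 and -0.0058 with rows of several symbols. The large minus small value, -0.014 as deposited, was 0.019 with quantile normalisation, 0.031 with the signal trend removed, 0.036 with the promoter GC trend removed, 0.029 without chromosome 19 and 0.012 with rows of several symbols. Genes at least 1.5-fold higher numbered 0, and 1 with quantile normalisation, with the signal trend removed and with the promoter GC trend removed; genes at least 1.5-fold lower numbered 0, and 1 with median centring. At a log2 difference of 0.322 the numbers were 4 and 2, and at 2-fold 0 and 0. Among the lists, the snoRNP median was 0.10 with the 75th percentile floor and 0.057 with the promoter GC trend removed, the RNA polymerase I median -0.031 with the latter, the growth control median 0.016 with quantile normalisation and 0.019 with the signal trend removed, and the p53 median -0.36 with the higher floor and 0.0043 with the promoter GC trend removed. The hepatocyte marker median was 0.0059 with the promoter GC trend removed, and that of the other cell type markers -0.41 with the signal trend removed and 0.15 with no floor. The medians of both assembly factor lists and of the TOP translation factors stayed below 0 in the 7 alternatives run on them. The cause of these shifts was not tested.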

Other observations

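Some genes had exactly the same deposited value in both arrays. This held for 190 of 11206 measured genes, or 1.70%, and for 4359 of 70523 rows, or 6.18%. RPL39L was the only such gene among the ribosomal protein genes and paralogs, and SBDS, which releases EIF6 from the large subunit, TAF1C and AFP were others. Such values give a difference of exactly 0, and the cause was not tested.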
